A study of Homo sapiens with 36 samples.

Results

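RNA-seq of THP-1 macrophages labelled IRG1 KO was compared with wild type (WT) 6 h after stimulation, across the genes of the deposited table. THP-1 is a human monocytic leukaemia line. All cells had been differentiated with PMA (100 nM, 72 h), an ester that turns the line into adherent macrophage-like cells. The 3 knockout (KO) libraries, labelled IRG1 KO, and the 3 WT libraries of this comparison came from cells given LPS (200 ng/mL) together with IFN-γ (200 ng/mL) for 6 h, and they are 6 of the 36 libraries of the series. The other 30 were vehicle-treated cells at 6, 12 and 24 h and stimulated cells at 12 and 24 h, with 3 libraries in each of 12 groups. How the knockout was made, and whether the KO line is 1 clone, is not given in the sources used here. Of 21599 genes in the table, 21232 were tested.

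IRG1 is the older name of ACOD1, a mitochondrial enzyme that macrophages switch on when they sense bacteria. It diverts cis-aconitate from the TCA cycle into itaconate, a metabolite that inhibits succinate dehydrogenase and can modify cysteines of regulatory proteins such as KEAP1. LPS acts through TLR4 on NF-κB and interferon regulatory factors, and IFN-γ acts through JAK kinases, so the pair of stimuli induces cytokines, chemokines and antigen presentation together.

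Levels are the deposited log2 values, and sets of 3 values run from replicate 1 to 3, written WT1 to WT3 and KO1 to KO3. A change is KO minus WT on the log2 scale, followed by ± its standard error. Square brackets hold the same change with KO2 left out, then any other library whose omission ended the call, with the value without it, and any call lost with a correction for GC content. They also hold the change of a called gene wherever one of these settings moved it by over 1.5 times. For a gene not called they name any library without which it was called. After a count of list members they hold the counts without KO2, with the GC correction where it differed, and without any library that moved the count by over 1.5 times. Each such count stands beside the shares over all genes tested, 4.86% higher and 3.86% lower. Those shares were 3.87% and 3.14% without KO2 and 4.1% and 3.69% with the GC correction. A gene was called, and is said to have risen or fallen in KO cells, at a limma adjusted p below 0.05 (Benjamini-Hochberg over 21232 genes). Square brackets do not show calls lost when only the 6 libraries compared were fitted. In that fit 98 of the 136 called genes named by rule lost their call. The labels do not say whether replicates were grown apart, and p-values then reflect the variation among these libraries, which may be technical. A linear fold appears where the mean of each group is at least 3.32, log2 of 10.

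ACOD1 itself was measured first. Stimulated WT libraries read 12.76, 11.49 and 11.11 and the KO libraries 8.35, 8.31 and 8.80, with no overlap. The change was -3.31 ± 0.47 [-3.22], a 9.89-fold lower level (limma adjusted p = 3.74e-05). Vehicle-treated cells of both genotypes were near 0 (0.41, 0.19 and 0.19 in WT, 0.04, 0.12 and 0.00 in KO). The transcript was lower in the KO libraries and not absent. Where the gene was edited is not given in the sources used here, and the level does not test the loss of the enzyme.

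KO2 stood apart from its group. Across genes it correlated with KO1 at r = 0.827 and with KO3 at r = 0.851, while KO1 and KO3 correlated at r = 0.954 and the WT libraries with one another at 0.919 to 0.960. Its mean correlation with its own group was the lowest of the 36 libraries (0.839). Its correlation with the WT libraries was 0.806 to 0.862. These are correlations over genes of whole libraries and are descriptions with no test. The distance of KO2 followed GC content. The 17660 genes with a known GC content were divided into 10 bins of like size. The median difference between KO2 and the WT mean ran from -0.901 in the bin with the lowest GC content (median 37.0%) to 0.988 in the bin with the highest (median 64.4%). For KO1 the same bins gave -0.042 and 0.244, and for KO3 -0.009 and 0.089. The median differences also followed transcript length, in 10 bins of these genes. From the shortest bin (median 712.5 bases) to the longest (9024 bases) KO2 ran from 0.635 to -0.9 and KO1 from -0.265 to 0.286. KO3 ran from -0.127 to 0.062, and WT3 minus the other WT libraries from 0.318 to -0.602. With GC correction and without KO2 the KO minus WT median still ran from -0.262 to 0.174, so a slope with length remained.

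**Figure D1:**
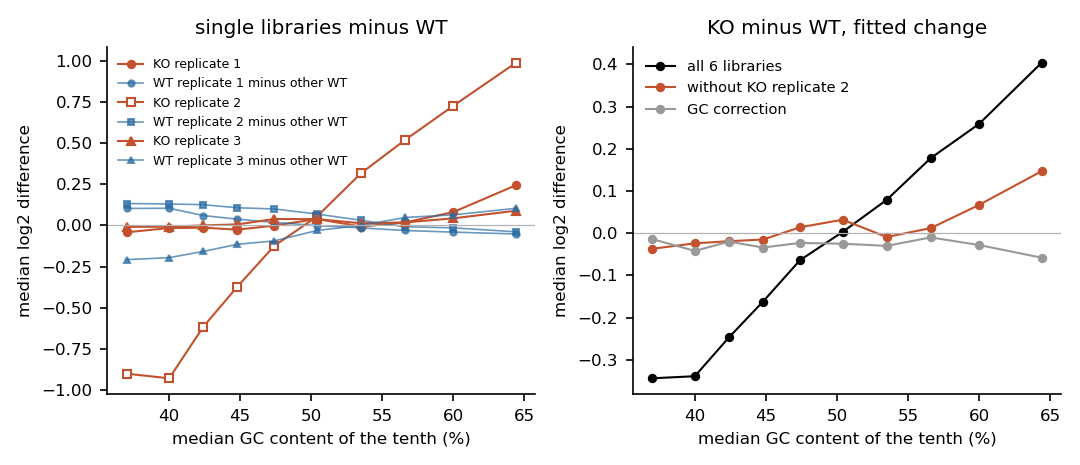
Median log2 difference by bin of GC content, 10 bins (horizontal axis, % GC) at 6 h with stimulation. The left panel shows each KO library (orange, KO2 open) minus the WT mean and each WT library (blue) minus the other WT libraries; the right panel shows the fitted KO minus WT change from 6 libraries (black), without KO2 (orange) and after GC correction (grey). KO2 crosses from -0.901 to 0.988, while KO1 and KO3 lie between -0.042 and 0.244 in the lowest and highest bins.

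The fitted change between genotypes carried the same slope. Its median went from -0.344 in the lowest bin to 0.404 in the highest, against -0.037 and 0.147 without KO2 and -0.014 and -0.058 with the GC correction. The share of genes that rose in KO cells went with it, from 1.87% in the lowest bin to 13.67% in the highest. Without KO2 that share went from 2.32% to 7.15%. A slope of this kind was also present in vehicle-treated KO replicate 2, whose highest bin lay 1.016 above its lowest, against 0.031 and 0.352 in the other vehicle-treated KO libraries. Each KO minus WT change with stimulation below is therefore given with and without KO2. Changes with vehicle, interactions of single genes and overlaps with calls in other comparisons are given with all libraries only.

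In all, 1031 genes were higher (4.86% of those tested) and 819 lower (3.86%) in KO cells, 8.71% together. With KO2 left out 821 were higher (3.87%) and 667 lower (3.14%), 7.01% together. With the GC correction the numbers were 870 (4.1%) and 783 (3.69%), 7.79% together. Of the 1031 higher genes 558 kept their call in both of these settings (2.63% of genes tested), and of the 819 lower genes 376 did (1.77%), 4.4% together. For 43.6% of the higher genes the WT mean was below 3.32, near the floor of the table. Among the lower genes 33.8% had a KO mean below 3.32. In 4393 genes (20.7%) the 3 KO and the 3 WT values did not overlap, with KO higher in 2348 (11.1%) and lower in 2045 (9.63%). Of these 1740 were called (8.2% of genes tested), 969 of them higher (4.56%) and 771 lower (3.63%). A fit of only the 6 libraries compared called 111 genes, and a fit of the 12 libraries at 6 h called 825. Most of the calls therefore rest on the spread estimated from all 36 libraries.

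The 12 largest falls named here were drawn from called genes whose groups did not overlap, and they included receptors, a protease and a Wnt ligand. CD163, the scavenger receptor that takes up haemoglobin bound to haptoglobin, read 9.37, 8.65 and 7.52 in WT and 2.78, 3.81 and 2.33 in KO cells, a change of -5.54 ± 0.71 [-5.96]. SCARA5, a ferritin receptor, went from 6.33, 7.32 and 6.07 to 0.00, 2.40 and 0.89. Its change was -5.47 ± 0.80 [-6.12]. MMP9, a gelatinase secreted by macrophages, read 16.29, 15.76 and 13.66 in WT and 9.29, 12.05 and 9.52 in KO cells, a 30.9-fold lower level at -4.95 ± 0.85 [-5.83], with KO2 the highest of the KO libraries. CLEC5A, a myeloid lectin receptor that signals through DAP12, read 5.76, 6.18 and 4.05 and 0.28, 0.81 and 1.13, with a change of -4.59 ± 1.07 [-4.62]. The tau kinase gene TTBK1 changed by -5.26 ± 0.73 [-5.64], the neuronal filament gene INA by -5.15 ± 0.84 [-5.09] and the actin-binding Kelch protein gene KLHL1 by -4.99 ± 0.68 [-4.73]. WNT5A, a secreted Wnt ligand made by inflammatory macrophages, read 7.18, 6.17 and 5.39 in WT and 2.23, 1.11 and 1.42 in KO cells. Its change was -4.66 ± 0.82 [-4.42]. GFPT2, which starts the hexosamine pathway, fell from 9.55, 9.54 and 8.33 to 3.69, 5.74 and 4.61. That was a 22.1-fold lower level, at -4.46 ± 0.63 [-4.99]. The metalloreductase STEAP1 changed by -4.72 ± 0.72 [-5.42], the sodium-dependent sugar sensor SLC5A4 by -4.91 ± 0.50 [-4.93] and the MAGE family member MAGED1 by -5.22 ± 0.33 [-5.37]. All 12 kept their call without KO2 and with the GC correction. MMP9 and STEAP1 lost theirs when only the 6 libraries compared were fitted.

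The largest rises, drawn by the same rule, were in genes with WT means between 0.00 and 3.45. COL10A1, the collagen of hypertrophic cartilage, read 0.58, 1.27 and 1.86 in WT and 9.01, 7.79 and 6.85 in KO cells, a change of 6.65 ± 0.90 [6.70]. NTS, the precursor of the peptide neurotensin, read 2.15, 1.14 and 4.12 and 8.89, 8.31 and 8.68, with a change of 6.16 ± 0.86 [6.32]. The granulocyte adhesion molecule CEACAM6 read 0.31, 0.59 and 1.4 and 6.67, 5.47 and 7.27. Its change was 5.70 ± 0.87 [6.20]. GDF3, a TGF-β family ligand, was at 0.00, 0.00 and 0.00 in WT cells, that is listed at or near 0, and read 5.04, 6.26 and 4.77 in the KO libraries. The water channel gene AQP1 changed by 4.57 ± 0.54 [4.36], the matrix glycoprotein gene FBLN1 by 4.64 ± 0.91 [5.00] and the membrane dipeptidase gene DPEP1 by 4.54 ± 1.04 [4.54]. DPEP1 read 3.02, 2.42 and 4.92 in WT and 7.90, 7.98 and 8.09 in KO cells. The remaining rises were the glycosyltransferase GALNT16 5.07 [4.79], the bone matrix gene MEPE 4.93 [5.14], the small membrane protein gene SMIM32 4.87 [4.91] and the phospholipase PLAAT3 4.73 [4.14]. In the genes with values shown, KO2 was the lowest KO library for CEACAM6 and NTS and the highest for GDF3, and it lay between KO1 and KO3 for COL10A1 and DPEP1.

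**Figure D2:**
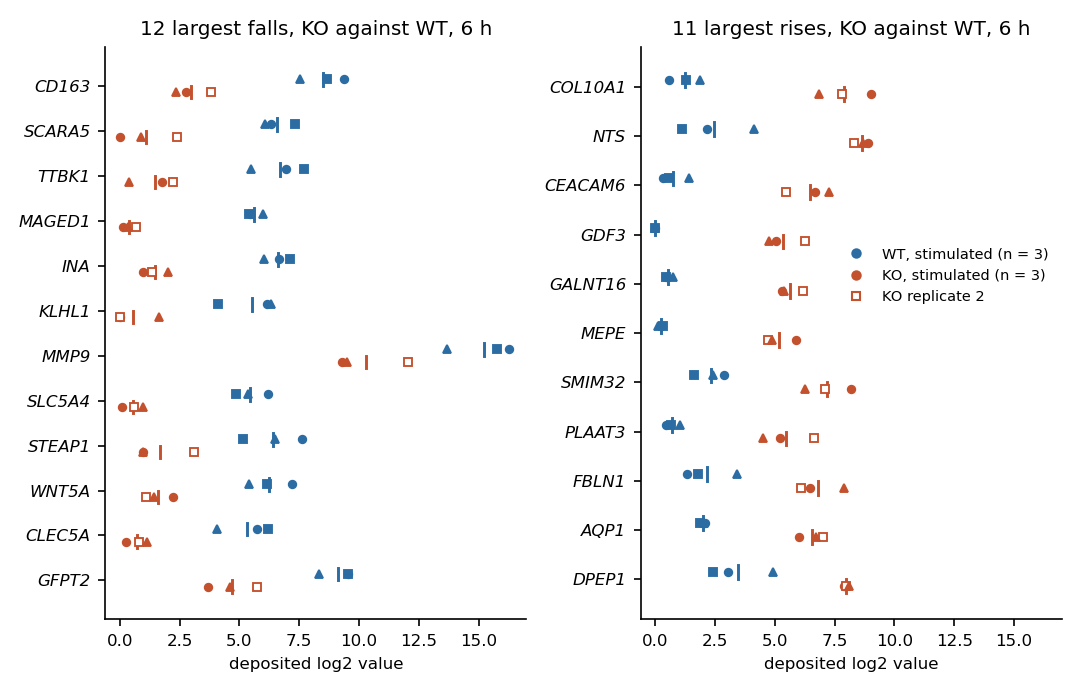
Deposited log2 values (horizontal axis) of the 12 largest falls and 11 of the largest rises in the 3 WT (blue) and 3 KO (orange, KO2 open) stimulated libraries at 6 h. Circles, squares and triangles are replicates 1, 2 and 3, and vertical ticks are group means; by the rule that chose them the groups are separate in each gene shown, and CD163, SCARA5 and MMP9 show KO2 nearest to WT.

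The smallest adjusted p-values were in other genes, apart from MAGED1, GALNT16 and SLC5A4 above. MAGED1 (WT 5.43, 5.42 and 5.98, KO 0.13, 0.69 and 0.34) and the ternary complex factor ELK1, which acts with SRF on immediate early genes, shared the smallest adjusted p, 1.54e-11 by limma. ELK1 read 6.90, 7.08 and 6.62 in WT and 2.73, 2.64 and 2.93 in KO cells, a change of -4.10 ± 0.25 [-4.04]. The gap junction gene GJD3 rose from 9.13, 9.22 and 9.56 to 11.33, 11.30 and 11.07, a 3.82-fold higher level at 1.93 ± 0.21 [1.9, 1.28 with GC correction]. The GC content of GJD3 was 73.8%. TNFSF12, which encodes the cytokine TWEAK, went from 1.83, 0.69 and 0.14 to 4.95, 6.19 and 4.57. Its change was 4.35 ± 0.46 [3.87].

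Some of the CXC chemokine genes were called lower in KO cells, and CXCL9, which attracts T cells, was called higher. Of 14 CXC chemokine genes tested, those higher and lower numbered 1 and 5 [1 and 1, 1 and 2 with GC correction, 1 and 1 without WT1, 0 and 2 without WT2, 0 and 1 without KO1], with a median change of -1.22 [-1.22] against -0.03 [-0.02] over all genes. The lower side held 4 neutrophil attractants that act on CXCR2, beside CXCL12. CXCL5 read 6.38, 6.68 and 4.90 in WT and 2.65, 3.76 and 3.65 in KO cells, a 6.21-fold lower level at -2.63 ± 0.60 [-2.84]. CXCL3 read 10.18, 9.32 and 9.34 and 7.34, 7.42 and 8.65, with a change of -1.81 ± 0.48 [-1.62, call lost without KO2, KO1 (-1.58) or WT1 (-1.53)]. For CXCL6 the values were 8.55, 8.60 and 8.94 and 6.36, 6.28 and 8.22, at -1.74 ± 0.52 [-1.41, call lost without KO2, KO1 (-1.45), WT1 (-1.82), WT2 (-1.79) or WT3 (-1.62) and with GC correction (-1.48)]. In both genes KO3 was nearer to WT than KO1 and KO2 were. CXCL1 read 11.52, 10.92 and 10.77 and 9.32, 9.48 and 10.52, with a change of -1.30 ± 0.41 [-1.15, call lost without KO2, KO1 (-1.07), WT1 (-1.07) or WT2 (-1.37) and with GC correction (-1.19)]. CXCL8 did not pass the test at -1.9 ± 0.68 [-1.28, called without KO3 (-2.43)], although its KO values (11.79, 10.37 and 12.66) all lay below the WT values (13.94, 13.69 and 12.91). CXCL2 was not called either, at -1.05 ± 0.51 [-0.53, called without KO3 (-1.67)]. CXCL12, the ligand of CXCR4, fell by a change of -1.84 ± 0.57 [-1.99, call lost without KO2, KO1 (-1.75), KO3 (-1.77), WT1 (-1.82) or WT2 (-1.55) and with GC correction (-1.79)]. In vehicle-treated cells at 6 h, 6 of the 14 genes were lower in KO cells and 0 higher, against 3.91% and 4.28% of all genes. The median vehicle change was -2.61, and the median difference between the stimulated and vehicle changes was 1.98. With vehicle CXCL3, CXCL6 and CXCL8 changed by -3.80, -3.72 and -4.36, all called. CXCL5 and CXCL12 were not called with vehicle (-1.18 and -0.49).

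The IFN-γ-induced ligands of CXCR3, which attract activated T cells, gave 1 rise and no fall. CXCL9 rose from 14.96, 14.62 and 14.64 to 16.75, 15.41 and 16.47, a 2.77-fold higher level at 1.47 ± 0.40 [1.87, call lost without KO1 (1.20), KO3 (1.34) or WT2 (1.41)]. The CXCL10 values were 15.49, 15.19 and 15.19 in WT and 16.12, 14.89 and 16.20 in KO cells, and its change of 0.45 ± 0.73 [0.87] was not called. CXCL11 was not called either, with 13.82, 13.66 and 13.84 and 14.62, 12.76 and 14.85 and a change of 0.30 ± 0.72 [0.96]. KO2 was the lowest KO library for each of these 3 genes, whose GC content was 40.1%, 37.5% and 34.5%, and its part in their change was not tested. Without KO2 the 3 changes were 1.87, 0.87 and 0.96.

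**Figure D3:**
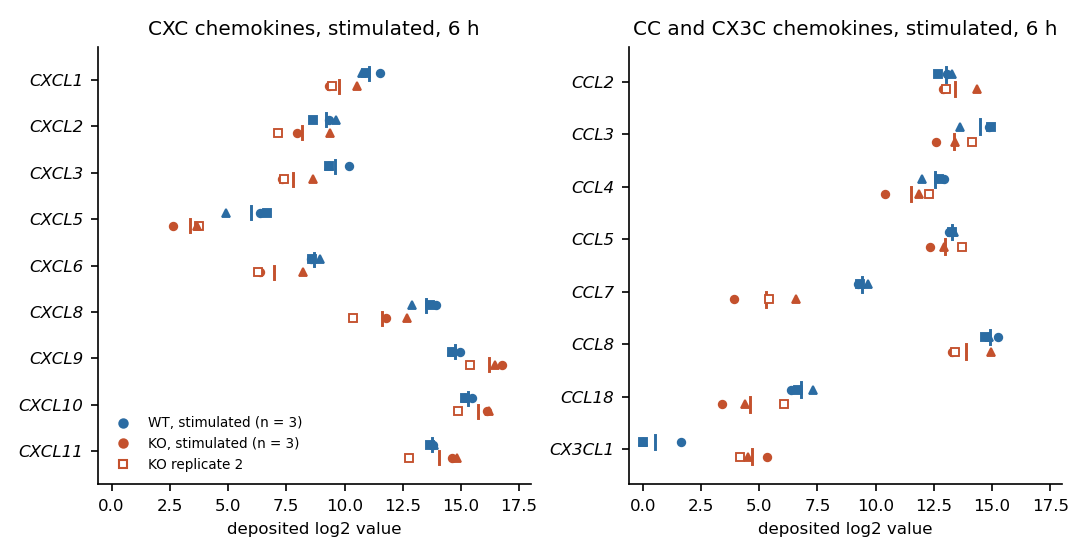
Deposited log2 values (horizontal axis) of 9 CXC chemokine genes and 8 CC or CX3C chemokine genes in the 3 WT (blue) and 3 KO (orange, KO2 open) stimulated libraries at 6 h, with group means as ticks. CXCL1, CXCL3, CXCL5 and CXCL6 lie lower in KO cells and CXCL9 higher, and CCL7 and CX3CL1 move in opposite directions.

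The promoters of 4 genes that fell, of CXCL9 and of CXCL10 are shown because these ligands are textbook targets of NF-κB and of interferon signalling. The 250 bases before the start of 13 of the 14 genes were read from RefSeq (GRCh38.p14), 5′ to 3′ on the strand of the gene, and searched on both strands for an NF-κB-type motif, GGGANNTTCC, and an interferon response-type motif, GAAANNGAAA. RefSeq's build differs from the GRCh37.p5 named in the submitters' processing notes, and the deposited table holds no coordinates. Matches are in capitals. Where the NF-κB-type motif matched on both strands at a shift of 1 base, the capitals span 11 bases. The first 4 genes were lower in KO cells, CXCL9 was higher and CXCL10 was not called.
CXCL1 (chr4:73869143-73869392, plus strand): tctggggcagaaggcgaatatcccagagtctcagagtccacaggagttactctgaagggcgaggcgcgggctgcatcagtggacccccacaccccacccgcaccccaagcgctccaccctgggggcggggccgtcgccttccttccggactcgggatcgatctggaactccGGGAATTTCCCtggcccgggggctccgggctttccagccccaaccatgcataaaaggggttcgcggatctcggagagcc
CXCL3 (chr4:74038690-74038939, minus strand): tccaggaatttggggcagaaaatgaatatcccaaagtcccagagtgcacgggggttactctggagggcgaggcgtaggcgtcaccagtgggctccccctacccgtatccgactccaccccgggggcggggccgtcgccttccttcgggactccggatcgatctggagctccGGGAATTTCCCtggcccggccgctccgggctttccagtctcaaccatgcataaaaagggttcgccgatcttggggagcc
CXCL5 (chr4:73998678-73998927, minus strand): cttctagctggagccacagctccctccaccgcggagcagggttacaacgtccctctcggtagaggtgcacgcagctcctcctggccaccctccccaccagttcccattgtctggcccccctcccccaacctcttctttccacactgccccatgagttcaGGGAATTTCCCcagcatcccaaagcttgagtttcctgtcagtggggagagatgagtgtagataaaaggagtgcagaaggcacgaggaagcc
CXCL6 (chr4:73836428-73836677, plus strand): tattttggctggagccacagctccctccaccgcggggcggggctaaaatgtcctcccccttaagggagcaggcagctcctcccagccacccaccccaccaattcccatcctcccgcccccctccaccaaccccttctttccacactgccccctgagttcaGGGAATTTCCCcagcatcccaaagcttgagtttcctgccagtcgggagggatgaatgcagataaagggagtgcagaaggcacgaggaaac
CXCL9 (chr4:76007510-76007759, minus strand): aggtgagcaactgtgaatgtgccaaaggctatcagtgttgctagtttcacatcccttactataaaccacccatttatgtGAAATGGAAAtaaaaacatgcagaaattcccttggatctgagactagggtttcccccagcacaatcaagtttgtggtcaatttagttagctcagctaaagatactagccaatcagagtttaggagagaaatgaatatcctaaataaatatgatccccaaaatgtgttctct
CXCL10 (chr4:76023498-76023747, minus strand): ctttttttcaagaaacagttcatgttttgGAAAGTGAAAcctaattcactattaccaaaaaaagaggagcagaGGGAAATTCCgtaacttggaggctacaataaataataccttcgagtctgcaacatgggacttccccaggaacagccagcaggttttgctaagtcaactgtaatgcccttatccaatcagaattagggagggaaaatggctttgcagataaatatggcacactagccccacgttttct
CXCL1, CXCL3, CXCL5 and CXCL6 carry the same 11 bases, GGGAATTTCCC, starting between 91 and 79 bases before the gene start. CXCL9 has no match to that motif in this window and has the interferon response-type motif 171 bases before its start, and CXCL10 has both, at 177 and 221 bases. Over 27305 promoter windows of the same length 1.42% held the NF-κB-type motif and 3.07% the interferon response-type motif. Of the 13 genes 7 held the first motif and 2 the second. CXCL2, which was not called, also holds GGGAATTTCCC, CXCL11 holds the first motif, and CXCL8 and CXCL12 match neither in this window. Only exact matches were counted. The windows of CXCL8 and CXCL9 each hold a stretch that departs from the NF-κB-type motif by 1 base. Such near matches were not searched for in the other windows. A match is a description of letters and not a measured binding site.

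Of 18 CC and other chemokine genes, those higher and lower numbered 2 and 2 [1 and 3, 2 and 1 with GC correction, 1 and 1 without KO1]. CCL7, a monocyte attractant, read 9.24, 9.32 and 9.66 in WT and 3.91, 5.40 and 6.59 in KO cells, a 17.2-fold lower level at -4.10 ± 0.63 [-4.15]. CCL18, made by alternatively activated macrophages, read 6.37, 6.68 and 7.31 and 3.40, 6.06 and 4.38. Its change was -2.18 ± 0.62 [-2.90, call lost without KO1 (-1.57), KO3 (-2.06), WT2 (-2.23) or WT3 (-1.92) and with GC correction (-2.03)]. CX3CL1, the membrane-bound ligand of CX3CR1, moved the other way, from 1.62, 0.00 and 0.00 to 5.32, 4.19 and 4.50 at 4.13 ± 0.80 [4.37]. Its receptor gene CX3CR1 also rose, from 2.61, 3.98 and 1.86 to 5.21, 5.25 and 5.01, with a change of 2.34 ± 0.60 [2.29, call lost without WT1 (2.24) or WT3 (1.86)]. The values of XCL1, which has the near-identical copy XCL2, overlapped between groups (2.71, 2.14 and 7.30 in WT and 6.44, 8.52 and 6.62 in KO cells), so its change of 3.14 ± 1.0 [2.48, call lost without KO2, KO1 (3.52), KO3 (3.43), WT1 (2.47) or WT2 (2.19), 4.77 without WT3] is uncertain. CCL2, the main monocyte attractant, was not called at 0.40 ± 0.65 [0.61]. Over 13 chemokine receptors those higher and lower numbered 1 and 2 [1 and 0, 0 and 1 without WT1], with CXCR4 at -1.94 [-1.74, call lost without KO2] and CCR1 at -1.82 [-1.30, call lost without KO2, WT1 (-1.59) or WT2 (-1.57)].

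Most cytokines that LPS induces were not called, and neither were most genes tested, of which 8.71% were called. Of 24 proinflammatory cytokine genes those higher and lower numbered 1 and 3 [0 and 3], against 4.86% and 3.86% of all genes. The 3 that fell were OSM, CSF3 and LIF. OSM, oncostatin M, read 5.40, 4.41 and 5.17 in WT and 0.17, 0.99 and 2.05 in KO cells, a change of -3.93 ± 0.82 [-3.88]. LIF, which signals through the same gp130 chain, read 7.01, 6.82 and 5.02 and 3.12, 1.15 and 3.41, with a change of -3.72 ± 0.71 [-3.02]. CSF3, the granulocyte growth factor G-CSF, went from 6.17, 5.71 and 5.41 to 1.06, 1.45 and 3.52 at -3.75 ± 0.78 [-3.47]. IL6, which also signals through gp130, read 10.47, 10.41 and 9.59 and 9.94, 9.88 and 10.54, and its change of -0.04 ± 0.63 [0.08] was not called. TNF was at -0.75 ± 0.44 [-0.95], IL1B at -1.51 ± 1.24 [-1.37], IL12B at -1.69 ± 1.15 [-2.15] and IFNB1 at -0.54 ± 1.04 [-1.29], none of them called. For IL1B every KO value (11.34, 11.29 and 12.06) lay below every WT value (13.41, 13.57 and 12.24). The lone rise was IL12A, a subunit of IL-12, with overlapping values and a change of 2.29 ± 0.71 [1.66, call lost without KO2, KO1 (2.32), WT1 (2.15) or WT3 (1.62)]. Among 17 anti-inflammatory mediators those higher and lower numbered 1 and 2 [1 and 2, 1 and 0 without WT1]. IL10 read 7.35, 6.98 and 5.25 in WT and 2.62, 5.10 and 3.15 in KO cells, a 7.48-fold lower level at -2.90 ± 0.69 [-3.64, call lost without WT1 (-2.49)]. TGFB1 rose by 1.29 ± 0.29 [0.97], and PDCD1LG2, the checkpoint ligand PD-L2, fell by a change of -1.43 ± 0.35 [-1.32, call lost without WT1 (-1.23)]. TNFSF4, the OX40 ligand, was the called member of 13 costimulatory genes, in which those higher and lower numbered 1 and 0 [2 and 0]. It went from 2.85, 2.92 and 2.82 to 6.00, 6.34 and 5.60, with a change of 3.12 ± 0.61 [2.94].

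Antiviral genes of the type I interferon response gave no call with the 6 libraries, while IFN-γ-induced regulators were called in both directions. Of 44 antiviral genes those higher and lower by limma numbered 0 and 0 [0 and 0, 0 and 1 without KO1, 0 and 1 without KO3] (5 had an unadjusted p below 0.05), with a median change of -0.47 [-0.06]. SIGLEC1 was at -1.52 [-1.62] and SAMD9 at -1.51 [-0.50]. In vehicle-treated cells at 6 h, 16 of the same 44 were lower in KO cells and 0 higher, against 3.91% and 4.28% of all genes. Those libraries enter this comparison only through the spread estimated from all 36 libraries. Of 29 IFN-γ-induced GTPases and regulators those higher and lower numbered 5 and 1 [4 and 1, 4 and 1 with GC correction, 2 and 1 without WT1, 2 and 1 without KO1]. GBP6, a guanylate-binding protein, read 2.13, 2.18 and 3.03 in WT and 6.05, 3.64 and 5.01 in KO cells, a change of 2.46 ± 0.42 [3.09]. CIITA, the master activator of MHC class II genes, read 6.09, 5.40 and 6.60 and 8.36, 7.57 and 8.08, a 3.93-fold higher level at 1.98 ± 0.53 [2.19, call lost without KO1 (1.79), WT1 (2.00) or WT2 (1.66)]. The complement inhibitor SERPING1 went from 7.24, 7.50 and 7.64 to 8.79, 9.06 and 8.93 at 1.46 ± 0.31 [1.4]. IRF8, a myeloid transcription factor, read 9.47, 9.59 and 9.42 and 11.51, 9.56 and 11.52, so KO2 lay among the WT values and KO1 and KO3 above them. Its change was 1.37 ± 0.36 [2.02, call lost without KO1 (1.05), KO3 (1.04) or WT1 (1.36)]. IRGM, an autophagy GTPase, fell from 4.62, 3.95 and 3.67 to 1.18, 1.42 and 1.30, with a change of -2.78 ± 0.50 [-2.84]. Several genes of this list are induced by type I interferon too.

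MHC class II presentation genes had changes above 0, most of them not called. Over all genes 4.86% were called higher and 3.86% lower. All 15 members tested had a positive change, with a median of 1.17 [0.69]. Those called higher and lower numbered 2 and 0 [1 and 0, 0 and 0 without WT1, 0 and 0 without WT2, 4 and 0 without WT3], namely CIITA and HLA-DQB1 2.02 [1.63, call lost without KO2, WT1 (1.77) or WT2 (1.75)]. HLA-DQB1 reads can be shared with its paralogs and are uncertain. HLA-DRA, the alpha chain of HLA-DR, read 6.95, 6.68 and 8.29 in WT and 8.19, 9.50 and 9.25 in KO cells, and its change of 1.67 ± 0.60 [1.41, called without WT3 (2.16)] was not called. HLA-DMB, a peptide editor, read 1.95, 2.62 and 2.83 and 3.53, 6.34 and 3.77, with KO2 far above the other 2 KO libraries and a change of 2.08 ± 0.74 [1.18, called without KO1 (2.59)]. Of 21 MHC class I and immunoproteasome genes those higher and lower numbered 1 and 0 [1 and 0, 2 and 0 without KO3], the called one being HLA-F at 1.63 ± 0.35 [1.25]. Of 20 JAK, STAT and IRF genes those higher and lower numbered 2 and 1 [3 and 1, 1 and 1 with GC correction, 0 and 1 without WT1, 0 and 1 without KO1], with JAK3 at -1.69 [-1.43] and TYK2 at 0.73 [0.80, call lost without KO1 (0.58), WT1 (0.73) or WT3 (0.64) and with GC correction (0.40)]. The receptor gene IFNLR1, which with IL10RB binds type III interferon, rose from 1.51, 1.14 and 0.43 to 6.21, 4.87 and 4.54 at 4.18 ± 0.58 [4.35].

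Scavenger, lectin and Fc receptor genes were called lower and never higher. Of 27 scavenger, lectin and Fc receptor genes those higher and lower numbered 0 and 6 [0 and 8, 0 and 5 with GC correction, 0 and 3 without WT1], and the median was -0.83 [-1.31]. Beside CD163 and CLEC5A these were the inhibitory receptor LILRB2, the β-glucan receptor CLEC7A, LILRB1 at -2.12 [-3.06, call lost without KO1 (-1.84), KO3 (-1.46), WT1 (-2.10) or WT2 (-1.97)] and CD68 at -1.06 [-1.31, call lost without KO1 (-0.76), KO3 (-1.11), WT1 (-1.07), WT2 (-1.13) or WT3 (-0.98)]. LILRB2 read 8.76, 7.50 and 8.33 in WT and 4.05, 6.02 and 4.80 in KO cells, a 9.43-fold lower level at -3.24 ± 0.63 [-3.77], and CLEC7A changed by -2.16 ± 0.56 [-2.52, call lost without WT1 (-1.83) and with GC correction (-1.84)]. Of 32 macrophage identity genes those higher and lower numbered 3 and 6 [1 and 7, 2 and 6 with GC correction, 0 and 2 without WT1], with a median of -0.65 [-0.75]. LYZ, lysozyme, read 10.19, 10.37 and 9.44 and 7.51, 7.21 and 7.34, a 6.26-fold lower level at -2.65 ± 0.53 [-2.57]. CSF1R, the receptor for the macrophage growth factor, read 10.22, 10.13 and 8.88 and 7.58, 8.18 and 7.26, with a change of -2.07 ± 0.50 [-2.33, call lost without WT1 (-1.83)]. VSIG4, a complement receptor, changed by -2.83 ± 0.77 [-3.37, call lost without KO3 (-2.33), WT1 (-2.85) or WT3 (-2.37)]. The 3 higher members were IRF8, the myeloid factor CEBPA at 0.74 [0.55, call lost without KO2, KO1 (0.74), WT1 (0.78), WT2 (0.77) or WT3 (0.67) and with GC correction (0.24)] and the macrophage factor MAF at 1.6 [1.29, call lost without KO2 or WT1 (1.38)]. The lineage factors SPI1 0.02 [-0.32] and CEBPB -0.02 [0.12] and the receptors ITGAM 0.07 [0.37] and CD14 -0.25 [-0.61] were not called. In vehicle-treated cells at 6 h, 8 of the 27 receptor genes were lower in KO cells and 0 higher, with a median of -0.98. For the 32 identity genes the vehicle numbers were 11 and 0, with a median of -0.96. Over all genes 3.91% were lower and 4.28% higher with vehicle.

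Among markers of myeloid precursors 3 rose. Of 23 myeloid precursor genes tested those higher and lower numbered 3 and 0 [2 and 0, 5 and 1 with GC correction], against 4.86% and 3.86% of all genes, with a median of 0.46 [0.47]. CD34, a surface marker of progenitors, read 2.29, 2.76 and 3.63 in WT and 5.62, 6.20 and 5.84 in KO cells, at 2.99 ± 0.49 [2.84]. The azurophil granule genes AZU1 and PRTN3 rose as well, with AZU1 at 1.37 ± 0.31 [0.94, call lost without KO2] and PRTN3 at 1.21 ± 0.33 [0.91, call lost without KO2, WT1 (1.07) or WT2 (1.02) and with GC correction (0.70)]. The mean level over the 23 precursor markers was 6.21 to 6.81 in the WT and 6.97 to 7.17 in the KO libraries. Over 14 macrophage markers the mean was 10.01 to 10.32 in WT and 9.34 to 9.88 in KO libraries, and each of the 14 was above 3.32 in both groups. The same order held in vehicle-treated cells (macrophage markers 10.46 to 10.71 in WT and 9.48 to 10.04 in KO, precursor markers 5.91 to 6.56 and 6.59 to 6.99). CD34 did not follow it, with vehicle means of 0.26 in WT and 0.08 in KO cells, near the floor. Its KO minus WT value was larger with stimulation than with vehicle, by 3.18 ± 0.69 (called). AZU1 was higher in KO cells with vehicle too, at 1.39 (called). The part of these marker levels in the results on receptors, chemokines and cytokines was not tested. In such bulk samples fewer cells of a kind and less RNA per cell cannot be told apart. Markers of other cell types were low, with 13 of 20 below 3.32 in WT and 12 in KO cells and a summed level, as log2, of 8.74 to 8.97 and 8.42 to 9.08. Of the 20, those higher and lower numbered 2 and 2 [2 and 3, 2 and 3 with GC correction], and the called ones were CD8A at 1.84 [1.56, call lost without KO2 or WT1 (1.76)], CD79A at 2.34 [2.01], MYH7 at -1.59 [-1.5, call lost without WT3 (-1.21)] and COL1A1. COL1A1, a collagen of fibroblasts, fell from 7.82, 7.74 and 7.86 to 4.51, 5.08 and 4.12, with a change of -3.23 ± 0.44 [-3.49].

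**Figure D4:**
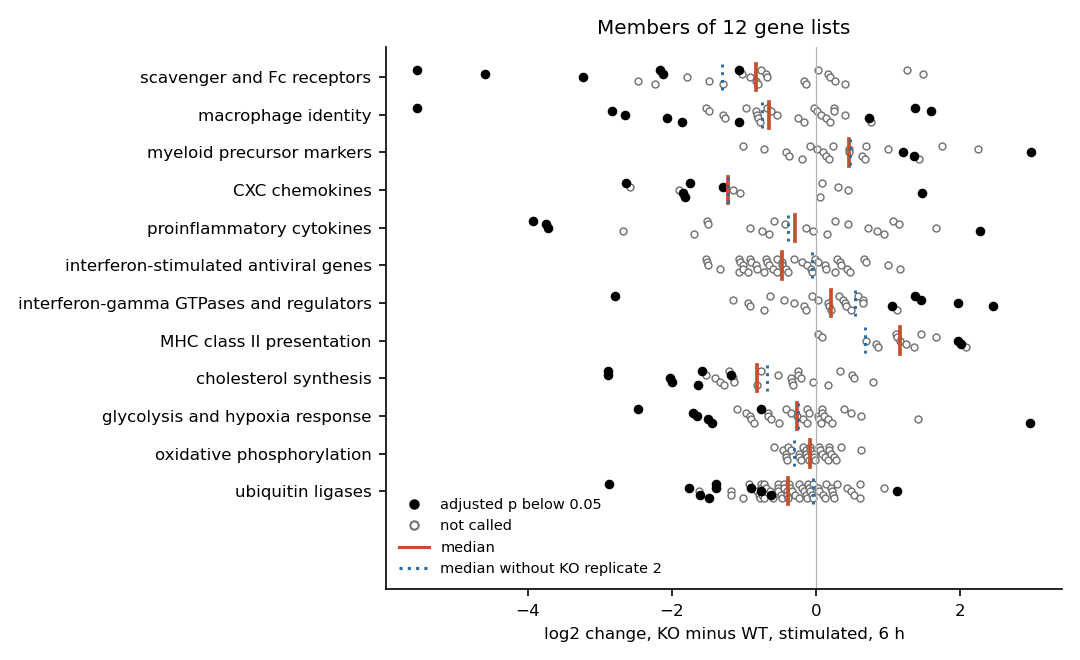
Log2 change, KO minus WT, at 6 h with stimulation (horizontal axis) of each tested member of 12 gene lists; filled points passed the test, open points did not, and vertical lines are the list median with 6 libraries (solid) and without KO2 (dotted). All 15 MHC class II genes lie above 0, none of 44 antiviral genes is filled, and each of the 6 filled scavenger and Fc receptor genes lies below 0.

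RNA levels of genes for secreted and extracellular proteins and for lipid mediators were counted by list. The shares over all genes were 4.86% higher and 3.86% lower. Of 26 matrix protease and coagulation genes those higher and lower numbered 3 and 6 [2 and 4, 2 and 7 with GC correction]. Beside MMP9, the protease-like gene ADAMDEC1 read 10.86, 10.86 and 9.89 in WT and 7.21, 7.39 and 7.47 in KO cells, a 9.06-fold lower level at -3.18 ± 0.48 [-3.20]. THBD, the thrombin receptor thrombomodulin, read 13.67, 12.63 and 12.71 and 9.63, 9.91 and 10.66, a 7.69-fold lower level at -2.94 ± 0.46 [-2.86]. MMP1, interstitial collagenase, rose instead, from 7.19, 7.03 and 7.12 to 10.61, 10.88 and 9.52, a 9.34-fold higher level at 3.22 ± 0.75 [2.95]. Of 20 complement genes those higher and lower numbered 4 and 1 [4 and 1, 3 and 1 with GC correction, 3 and 0 without WT1]. C4A 1.5 [1.33] and C4B 1.51 [1.37] are near-identical copies, so their reads cannot be assigned to one or the other, and C3AR1, the receptor for C3a, fell by a change of -2.53 ± 0.70 [-2.75, call lost without KO1 (-2.15), WT1 (-2.23) or WT2 (-2.52)]. Of 24 genes of eicosanoid and amino acid metabolism those higher and lower numbered 1 and 5 [0 and 6, 0 and 6 with GC correction, 0 and 3 without WT1]. PTGES, the inducible prostaglandin E synthase, read 5.52, 6.40 and 5.08 and 0.62, 2.91 and 1.86, with a change of -3.87 ± 0.73 [-4.42]. KMO and TDO2 of the kynurenine pathway fell by changes of -2.25 ± 0.48 [-2.81] and -2.41 ± 0.58 [-2.76, call lost without WT1 (-2.09)], and LTA4H, which makes leukotriene B4, by -1.88 ± 0.44 [-2.11].

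Genes of lipid synthesis were called lower and never higher. Of 29 cholesterol and fatty acid synthesis genes those higher and lower numbered 0 and 7 [0 and 6, 0 and 8 with GC correction, 0 and 4 without WT1, 0 and 4 without WT2], 24 had a negative change, and the median was -0.82 [-0.68]. SCD, which desaturates stearoyl-CoA, read 9.19, 8.64 and 8.22 in WT and 5.92, 5.09 and 6.39 in KO cells, a 7.38-fold lower level at -2.88 ± 0.51 [-2.53]. FADS2, a desaturase of polyunsaturated fatty acids, read 6.82, 6.25 and 6.24 and 2.80, 4.63 and 3.20, at -2.89 ± 0.62 [-3.43]. The sterol oxidase gene MSMO1 changed by -2.02 ± 0.51 [-1.58, call lost without KO2 or WT2 (-1.46)]. The transcription factor genes SREBF1 -0.76 [-1.07] and SREBF2 -0.25 [-0.06] were not called. NR1H3, the oxysterol receptor LXRα, fell by a change of -2.28 ± 0.59 [-3.19, call lost without KO1 (-1.63), KO3 (-2.01) or WT2 (-2.03)]. In vehicle-treated cells at 6 h, 11 of the 29 synthesis genes were lower in KO cells and 0 higher, with a median of -1.18. Over all genes the vehicle shares were 3.91% lower and 4.28% higher, and with stimulation 3.86% and 4.86%.

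PHGDH and PSAT1 of serine synthesis fell within the integrated stress response list. Of its 31 members those higher and lower numbered 0 and 3 [0 and 3], against 4.86% and 3.86% of all genes. The 3 were PSAT1, PHGDH and ALDH1L2, enzymes of serine and one-carbon metabolism. PSPH, SHMT2 and MTHFD2 of the same pathways are members too and were not called. PHGDH, the first enzyme of serine synthesis, read 8.83, 6.00 and 9.12 in WT and 4.11, 5.81 and 4.93 in KO cells, so WT2 sat close to KO2. Its change was -3.03 ± 0.67 [-3.46]. PSAT1 read 6.12, 4.55 and 5.16 and 2.99, 0.77 and 2.01, with a change of -3.35 ± 0.66 [-2.77], and ALDH1L2 changed by -2.41 ± 0.59 [-2.32, call lost without WT1 (-1.92)]. Of 35 glycolysis and hypoxia genes those higher and lower numbered 1 and 6 [1 and 3, 0 and 0 without WT1]. HK2, an inducible hexokinase, read 8.49, 8.40 and 7.21 and 6.80, 3.47 and 6.42, with KO2 far below the others and a change of -2.47 ± 0.64 [-1.42, call lost without KO2, WT1 (-2.24) or WT2 (-2.29)]. HK3 changed by -1.71 ± 0.44 [-1.9, call lost without WT1 (-1.55)] and ENO2 by -1.65 ± 0.40 [-1.55, call lost without WT1 (-1.5)], while EGLN3, an oxygen-sensing hydroxylase and HIF target, rose by 2.97 ± 0.86 [3.6, call lost without KO1 (2.45), KO3 (2.88), WT1 (2.67) or WT3 (2.72)]. Of 31 TCA cycle and carrier genes those higher and lower numbered 0 and 1 [0 and 2, 0 and 0 with GC correction, 0 and 0 without WT2, 0 and 2 without KO3], and the called one was FH, fumarase, at -0.69 ± 0.18 [-0.69, call lost without KO1 (-0.64) or WT2 (-0.67) and with GC correction (-0.52)]. Of 32 oxidative phosphorylation genes those higher and lower by limma numbered 0 and 0 [0 and 2, 0 and 1 with GC correction, 1 and 0 without KO3] (3 at an unadjusted p below 0.05), with a median of -0.09 [-0.30]. Of 47 cytosolic ribosomal protein genes those higher and lower by limma numbered 0 and 0 [0 and 0] (1 at an unadjusted p below 0.05, median 0.10 [-0.15]). Of 28 NRF2 targets those higher and lower numbered 0 and 3 [0 and 1, 0 and 0 without WT1, 0 and 1 without WT2, 0 and 0 without WT3, 0 and 1 without KO1, 0 and 1 without KO3], with GCLC at -1.74 [-1.34, call lost without KO2, KO1 (-1.89), WT1 (-1.70), WT2 (-1.80) or WT3 (-1.72) and with GC correction (-1.59)] and TKT at -0.99 [-1.26, call lost without KO1 (-0.76), KO3 (-0.94), WT1 (-1.01), WT2 (-1.0) or WT3 (-0.94)], and HMOX1 was not called at -1.0 ± 0.44 [-1.23]. Of 10 genes of itaconate synthesis and breakdown those higher and lower numbered 0 and 1 [0 and 3, 0 and 2 without KO1, 0 and 2 without KO3], ACOD1 being the called one with 6 libraries.

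The title of the series names global ubiquitination, and the genes of that system were counted. Over all genes tested 4.86% were higher and 3.86% lower, 8.71% together. Of 68 ubiquitin ligase genes those higher and lower numbered 1 and 9 [1 and 5, 1 and 6 with GC correction, 0 and 4 without WT1, 0 and 3 without WT2], with a median of -0.39 [-0.04], so the count and the median both moved towards 0 without KO2. CBLB, a ligase that restrains immune receptors, read 7.10, 7.00 and 5.78 in WT and 4.95, 4.12 and 5.51 in KO cells, a change of -1.77 ± 0.38 [-1.39]. PELI1, which acts in TLR signalling, changed by -1.61 ± 0.50 [-0.60, call lost without KO2, WT1 (-1.48) or WT2 (-1.4)]. MARCHF1, which removes MHC class II from the surface, changed by -2.87 ± 0.82 [-2.42, call lost without KO2, WT1 (-2.51) or WT2 (-2.45)], and FBXO32 by -1.48 ± 0.42 [-1.85, call lost without KO1 (-1.14), KO3 (-1.45), WT1 (-1.46) or WT2 (-1.38) and with GC correction (-1.31)]. Of 45 ubiquitin, E1 and E2 genes those higher and lower numbered 0 and 2 [0 and 1, 1 and 1 with GC correction, 0 and 1 without WT1]. The conjugating enzyme gene UBE2D1 read 7.62, 7.21 and 7.28 and 6.46, 5.85 and 6.26, a 2.27-fold lower level at -1.18 ± 0.23 [-1.01]. Of 53 deubiquitinase genes those higher and lower by limma numbered 0 and 0 [2 and 0, 1 and 0 with GC correction, 0 and 1 without WT3, 0 and 2 without KO1, 0 and 2 without KO3], so the calls and their direction moved with the libraries used (6 had an unadjusted p below 0.05, median -0.24 [0.10]). Of 34 proteasome genes those higher and lower numbered 0 and 3 [0 and 3, 0 and 2 with GC correction], with PSMA6 at -0.66 [-0.73, call lost without KO2, KO1 (-0.52), KO3 (-0.73), WT1 (-0.72), WT2 (-0.73) or WT3 (-0.53) and with GC correction (-0.34)], PSMD11 at -0.70 [-0.67] and PSMD12 at -0.97 [-0.62, -0.65 with GC correction].

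Lists of signalling genes were counted next, beside 4.86% higher and 3.86% lower over all genes. Of 32 NF-κB subunits, feedback genes and targets those higher and lower numbered 0 and 2 [1 and 1, 0 and 1 with GC correction, 0 and 1 without WT1, 0 and 1 without KO1, 0 and 1 without KO3]. TNIP3, an NF-κB inhibitor induced by LPS, read 8.64, 8.47 and 8.02 in WT and 5.02, 6.58 and 6.11 in KO cells, a 5.56-fold lower level at -2.48 ± 0.47 [-2.81]. PTX3, a secreted pattern recognition protein, changed by -1.86 ± 0.57 [-1.85, call lost without KO2, KO1 (-1.84), KO3 (-1.89) or WT1 (-1.37) and with GC correction (-1.81)]. Of 31 TLR signalling genes those higher and lower numbered 0 and 3 [0 and 1, 0 and 2 with GC correction, 0 and 0 without WT1], with the LPS-binding protein gene LBP at -2.63 [-3.04, call lost without WT1 (-2.21)] and TBK1 at -0.91 [-0.42, call lost without KO2 or WT1 (-0.84), -0.59 with GC correction]. Of 22 inflammasome genes those higher and lower numbered 1 and 3 [0 and 1, 1 and 2 with GC correction, 0 and 1 without WT1, 1 and 1 without KO1]. NLRC4, the inflammasome adaptor of the NAIP sensors, read 4.98, 4.47 and 4.99 and 1.82, 2.92 and 1.81, with a change of -2.63 ± 0.39 [-3.0]. Of 29 immediate early genes those higher and lower numbered 3 and 3 [4 and 1, 1 and 3 with GC correction, 1 and 0 without WT1, 2 and 0 without WT2, 2 and 1 without KO1], with KLF4 at 1.65 [1.98] and IER3 at -1.56 [-1.80, call lost without KO1 (-1.21), WT1 (-1.51) or WT2 (-1.46)].

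Some of the genes called with stimulation were also called with vehicle, in 6 other libraries at 6 h. All these tests share 1 estimate of the spread from all 36 libraries. A gene with a small spread is therefore more readily called in each, and the overlaps are not independent. Replicate 2 of the vehicle-treated KO cells also had a slope with GC content, and its part in the overlap was not tested. In them 908 genes were higher and 831 lower in KO cells (8.19%). Of the 1031 genes higher with stimulation 359 (34.8%) were also called higher with vehicle and 4 lower, against 4.28% and 3.91% of all genes. Of the 819 lower genes 290 (35.4%) were called lower with vehicle and 1 higher. With vehicle the change was -4.42 (called) for MMP9, 5.75 (called) for COL10A1 and 5.78 (called) for NTS. The stimulated libraries at 12 h and 24 h, which enter the comparison at 6 h only through that spread, gave further calls in the same direction. At 12 h 220 of the higher genes (21.3%, against 1.78% of all) and 193 of the lower ones (23.6%, against 1.68%) were called the same way, and at 24 h, where 5.87% of genes were called against 3.45% at 12 h, 173 (16.8%, against 3.41%) and 155 (18.9%, against 2.46%). None was called the opposite way at 12 h, and at 24 h 3 of the higher and 3 of the lower genes were.

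The interaction of genotype and stimulus asks whether the KO to WT difference itself changed with stimulation. It was called for 96 genes (0.452%), of which 60 (0.283%) had a larger KO minus WT value with stimulation and 36 (0.17%) a smaller one. Among them ACOD1 had an interaction of -3.10 ± 0.67 (limma adjusted p = 0.0311). KLHL1 and TTBK1 were low in vehicle-treated cells and high in stimulated WT cells. KLHL1 was at 0.00, 0.00 and 0.00 in vehicle-treated WT and 0.94, 0.00 and 0.00 in vehicle-treated KO cells, and its interaction was -5.30 ± 0.96. SLC5A4 read 0.16, 0.20 and 0.10 and 0.01, 0.09 and 0.00 with vehicle, at an interaction of -4.79 ± 0.70, and SCARA5 gave -4.93 ± 1.13 and TTBK1 -5.28 ± 1.04. STEAP2, a metalloreductase like STEAP1, was at 3.43, 2.63 and 2.93 and 3.18, 3.72 and 3.31 with vehicle and at 6.73, 4.23 and 4.21 and 0.38, 1.05 and 0.41 with stimulation, so stimulated WT cells lay above and stimulated KO cells below every vehicle value. IFNLR1 and TMPRSS6 were high only in stimulated KO cells. IFNLR1 was at 1.95, 0.45 and 1.69 in vehicle-treated WT and 1.49, 2.31 and 0.09 in vehicle-treated KO cells, with an interaction of 4.25 ± 0.82. TMPRSS6, the protease matriptase-2 that restrains hepcidin in the liver, read 1.38, 0.35 and 1.98 in WT and 4.47, 5.81 and 5.22 in KO cells with stimulation and an interaction of 4.21 ± 0.63. The interactions of HMSD, DNAJB13 and ICAM5 were 4.23 ± 0.98, 3.83 ± 0.80 and 3.68 ± 0.81. ICAM5, an adhesion molecule of neurons, read 4.79, 5.49 and 2.58 in WT and 1.15, 2.51 and 0.95 in KO cells with vehicle. The values 2.58 and 2.51 nearly met, both below 3.32. Its change with stimulation was not called (0.94 ± 0.57 [1.06]). A fit of the 12 libraries at 6 h alone called no interaction by limma, with 1373 genes at an unadjusted p below 0.05, so these calls rest on the spread estimated from all 36 libraries.

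**Figure D5:**
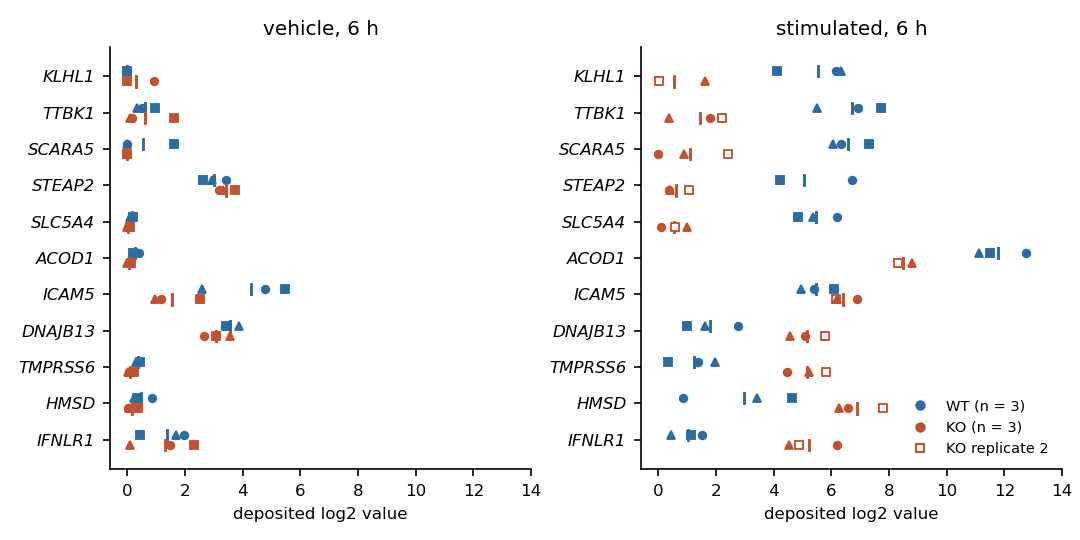
Deposited log2 values (horizontal axis) of ACOD1 and the 10 genes named for their interaction, in WT (blue) and KO (orange) libraries at 6 h with vehicle (left) and with stimulation (right, KO2 open), with group means as ticks. KLHL1, TTBK1, SCARA5, STEAP2, SLC5A4 and ACOD1 are high in stimulated WT cells, and IFNLR1, TMPRSS6, HMSD and DNAJB13 are higher in stimulated KO cells. ICAM5 is lower in KO cells with vehicle, where the nearest values of the genotypes almost meet.

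The genes that stimulation changes were also counted in this comparison, using the WT response at 12 h, which compares other libraries and was called in 38.5% of genes. Both tests use the spread estimated from all 36 libraries. Of 3568 genes (16.8%) that stimulation raised in WT cells at 12 h, 7.65% were lower and 5.18% higher in KO cells at 6 h. Of 4609 genes (21.7%) that it lowered, 3.04% were lower and 5.55% higher. Among the 13055 genes not called for that response the shares were 3.11% and 4.52%. Without KO2 they were 6.14% and 4.29% for raised genes, 2.76% and 4.30% for lowered ones, and 2.46% and 3.6% for genes not called. These are counts with no test of their difference.

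Further lists were counted in the same way, beside 4.86% higher and 3.86% lower over all genes. Of 31 lysosome and cathepsin genes those higher and lower numbered 2 and 4 [1 and 5, 2 and 3 with GC correction, 1 and 1 without WT1, 2 and 1 without KO3]. For 26 integrin and adhesion genes the numbers were 0 and 2 [1 and 1, 0 and 3 with GC correction, 0 and 0 without WT1, 0 and 1 without WT2], for 21 heat shock chaperones 0 and 3 [0 and 1, 0 and 2 with GC correction, 0 and 1 without WT1, 0 and 1 without WT2, 2 and 4 without KO3], for 18 histone genes 0 and 2 [0 and 3, 0 and 0 without WT1, 0 and 1 without WT2, 0 and 1 without WT3, 0 and 0 without KO1, 0 and 0 without KO3] and for 25 apoptosis regulators 2 and 1 [3 and 0, 1 and 1 with GC correction, 1 and 0 without WT1, 1 and 0 without WT2, 3 and 2 without KO3]. By limma the numbers were 0 and 0 [0 and 0, 0 and 1 without KO3] for 35 cell cycle genes, 0 and 0 [1 and 1, 1 and 0 without WT2, 1 and 1 without WT3, 0 and 1 without KO3] for 21 metallothionein, iron and zinc genes, 0 and 0 [0 and 1] for 14 noncoding RNAs and 0 and 0 [0 and 0, 1 and 0 without WT3] for 10 NADPH oxidase genes. In these 4 lists the members with an unadjusted p below 0.05 numbered 2, 4, 2 and 1.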

How the data were processed

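Total RNA was extracted with a Qiagen RNeasy kit and made into KAPA HyperPrep libraries with RiboErase, per the labels' protocols. Per the submitters' processing notes the tools included cutadapt 1.9.1 and GSNAP, with the build GRCh37.p5. The authors deposited 1 table of log2 values per gene, whose normalization is not given in the sources used here. Library medians lay between 5.4691 and 5.4753 and 88.0% of ranks ranged by less than 0.1 over the 36 libraries, so the libraries share nearly 1 distribution, shifts common to all genes are not visible, and the depth is unknown.

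Genes at or above log2(10) in at least 3 libraries were kept (21232), and limma 3.58.1 (R 4.3.3) was fitted to 12 group means over 36 libraries, which share 1 estimate of the spread, with a mean-variance trend and 24 residual degrees of freedom. P-values were adjusted over all 21232 genes. The GC correction subtracted a lowess curve (span 0.3) on GC content, known for 17660 genes. On simulated data for this comparison, run on 21232 genes, 36 of 100 genes changed by 1 and 69 of 100 changed by 2 on the log2 scale were recovered, 0 in the wrong direction, with 9 false calls. The simulated noise was independent and normal, with the same spread for a gene in every library. Changes were placed only in genes above a minimum mean level. No outlying library and no slope with GC content or length was simulated, so these rates need not hold for the real libraries.

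Named genes were ACOD1, 12 fixed genes, the 12 largest rises and 12 largest falls among called genes whose groups did not overlap and whose higher mean was at least 5, 5 interaction genes each way, the 6 smallest adjusted p-values and up to 4 called members of each list, leaving out uncharacterized, antisense, pseudogene and small RNA genes; other list members are given as examples chosen after their values were seen. A few genes under this rule are not reported here. Members and lists were chosen with earlier results of these data known. Alternatives were other filters, normalizations, weights, spread estimates, a replicate block and leaving out each library, and the GC correction without KO2 was added after seeing the data.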

Additional observations from a re-analysis of the deposited data

Results flagged for a closer look

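The KO minus WT difference itself differed between stimulated and vehicle-treated cells at 6 h, by the limma interaction test, in 96 genes. It was larger with stimulation in 60 genes and smaller in 36. Among the genes named by rule the interaction, on the log2 scale, was -3.10 for ACOD1, -4.93 for SCARA5, -5.28 for TTBK1, -5.30 for KLHL1, -4.79 for SLC5A4 and -4.85 for STEAP2. On the other side it was 4.25 for IFNLR1, 4.23 for HMSD, 4.21 for TMPRSS6, 3.83 for DNAJB13 and 3.68 for ICAM5. With the 12 libraries at 6 h alone limma called 0 interactions, with 1373 genes at an unadjusted p below 0.05.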

How the results depend on the processing

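Of 168 named genes 136 were called, and no called one changed direction in the settings in which it was tested (61 of the 136 were tested with the stricter filter). Calls were lost more often: 38 of the 136 kept theirs with only the 6 libraries compared and 91 with only the 12 libraries at 6 h. The 1850 calls became 727 with a stricter filter (fewer genes tested), 5894 with library weights, 111 with only the 6 libraries compared and 825 with only the 12 libraries at 6 h (fewer libraries). Of the 1850 genes 110 were also called with the 6 libraries and 782 with the 12. Mean correlations of KO1, KO2 and KO3 with their group were 0.891, 0.839 and 0.903. Whether the spread shared by 36 libraries suits that group was not tested. Leaving out 1 library gave 932 to 1950 calls, the fewest without WT1. Of the 1850 genes 1076 were also called without KO2 and 1387 with the GC correction, and 934 kept their call in each of these fits. A single fit with the GC correction and without KO2 together called 1054 of them. The 1739 vehicle calls became 766, 8673, 750 and 965 in the same 4 settings, and 982 to 1525 with 1 library left out. The 96 interactions became 8 with the stricter filter, 178 with an offset of 5, 2919 with weights and 0 with the 12 libraries at 6 h, and 36 to 117 with 1 library left out. The difference between the highest and lowest GC bin, 0.748, was -0.044 after GC correction, by construction, 0.801 in protein-coding genes, 0.749 with quantile normalization and 0.184 (without KO2) to 1.071 with 1 library left out. Where fewer genes or libraries do not show it, the cause was not tested.

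A replicate block gave 2932 calls, 2804 with the GC correction, for vehicle 2712 and 2820, and for the interaction 219 and 225. The numbers are not known to pair the samples: same-numbered KO and WT libraries deviated together at r = 0.263, -0.15 and -0.106, and KO2 correlated best with WT3 (0.317).

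Changes not called that switched sign were those of IL6, at 0.1041 with the GC correction (with or without the block), 0.0352 with weights and 0.0845 with the GC correction and without KO2, and -0.32 to 0.12 with 1 library left out (0.05 without KO1, 0.08 without KO2, 0.12 without WT1, 0.09 without WT2). With 1 library left out CXCL11 ran from -0.086 (without KO3) to 0.96, CCL2 from -0.0593 (without KO3) to 0.66, IFNB1 from -1.29 to 0.17 (without KO1) and OTUD4 from -1.85 to 0.16 (without KO2), and OTUD4 was at 0.18 with the GC correction and without KO2. Depth is unknown, so no counting error could be given.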
